A study of Mus musculus with 5 samples.

Results

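A set of 10 genes that code for the neuronal cytoskeleton was followed after knockdown of Ewsr1 in N2a cells, an established line of mouse neuroblastoma. They were given by name, and the set was chosen with earlier results of these data known. The neuronal intermediate filament genes are Ina, Nefl, Nefm, Nefh and Prph, and the neuronal tubulin gene is Tubb3. The others are the microtubule-associated protein genes Map2 and Mapt and the growth cone genes Stmn2 and Gap43. These 10 are among 54838 genes listed, and 8 of the 10 had enough reads to be tested.

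The series compares 2 groups of bulk RNA-seq libraries from a single cell line. In the group called siCtrl (n = 2), the cells received a control siRNA. In the group called siEwsr1 (n = 3), they received an siRNA against Ewsr1, which codes for an RNA-binding protein of the FET family. For all 5 libraries the labels give 50000 cells, transfected by lipid in 2 rounds and harvested 24 h after the second round. The question set by the design is which transcripts differ when Ewsr1 is reduced. No label says that the libraries of a group came from separate cultures, so each p-value is set against library-to-library variation that may be no more than technical.

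Neurofilaments are built from light, medium and heavy chains (Nefl, Nefm and Nefh) together with alpha-internexin (Ina) or peripherin (Prph), and these rope-like polymers set the calibre of axons. Microtubules, the other long polymer of neurites, are assembled from tubulin dimers and stabilised by Map2, mostly in dendrites, and by tau (Mapt), mostly in axons. Neuroblastoma arises from the sympathoadrenal lineage, in which peripherin is the usual filament protein.

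Levels are in RPKM, reads scaled to the exonic length of the gene and to the counted reads of the library, so they can be compared between genes. Libraries held 15045774 to 21339459 counted reads. Ewsr1 itself (chr11:5069689-5099266, GRCm38) stood at 71.7 and 72.3 RPKM in siCtrl and at 35.7, 36.3 and 37.6 in siEwsr1, so its mean in siEwsr1 was 50.7% of that in siCtrl. The first siCtrl value could also be read as 7.17, because the deposited values of 1 or more had lost their decimal point. The odds for 71.7 were 11.4 to 1, under the 20 required, so Ewsr1 was left out of the test. With a tighter spread assumed between libraries, a setting given up because it misread genes in simulated data, it was kept, and its log2 fold change was -0.96 ± 0.07 (SE, limma adjusted p = 0.0207). Across all tested genes siEwsr1 replicate 3 lay nearest the controls, at -0.19 on the first principal component against 16.3 and 33.5 for the other siEwsr1 libraries and -21.1 and -28.6 for siCtrl.

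The cells carried the markers of their lineage: 15 of 17 neuroblastoma and neuronal markers had a mean above 1 RPKM, among them Hand2, Dbh and Chgb. Isl1 was called higher in siEwsr1, with a log2 fold change of 0.83 (limma adjusted p = 0.0332), and none of the 16 tested was called lower. Th stayed between 0.611 and 1.11 RPKM. The 6 astrocyte markers summed to at most 0.145 RPKM in any library, with Slc1a2 and S100b at 0 in all. Oligodendrocyte, microglial and endothelial markers each summed to at most 1.41 RPKM, with Olig2, Csf1r and Kdr at 0 in all. The Schwann cell list summed to 84.7 and 88.7 RPKM in siCtrl and to 71.0 to 83.8 in siEwsr1 through Pmp22 and Ngfr, while its defining gene Sox10 was at 0. The 7 fibroblast and mural markers summed to 2.94 and 3.22 RPKM in siCtrl and to 0.890 to 0.971 in siEwsr1, nearly all of it Acta2, which was called lower, while Lum and Col3a1 were at 0. Some genes of wide expression, such as Dyrk1a, are also listed at 0 in all 5 libraries, so a listed 0 may not show that a marker is absent. The part of these markers in the results below was not tested.

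Of the 8 neuronal genes tested, Ina was called higher in siEwsr1 and none was called lower. The background for this count is that, of 14859 tested genes, 0.754% were called higher and 0.922% lower at an adjusted p under 0.05, 249 genes or 1.68% in all. These calls come from limma with Benjamini-Hochberg adjustment over all tested genes. At an unadjusted p under 0.05, Ina and Gap43 were higher and Prph was lower, a threshold that 9.89% of all tested genes passed in the higher direction and 10.3% in the lower. Where the libraries of the groups were compared without a test, Ina, Stmn2 and Gap43 stood higher in every siEwsr1 library than in either siCtrl library and Prph stood lower. Over all tested genes, 19.4% stood apart in this way in the higher direction and 20.4% in the lower.

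**Figure D1:**
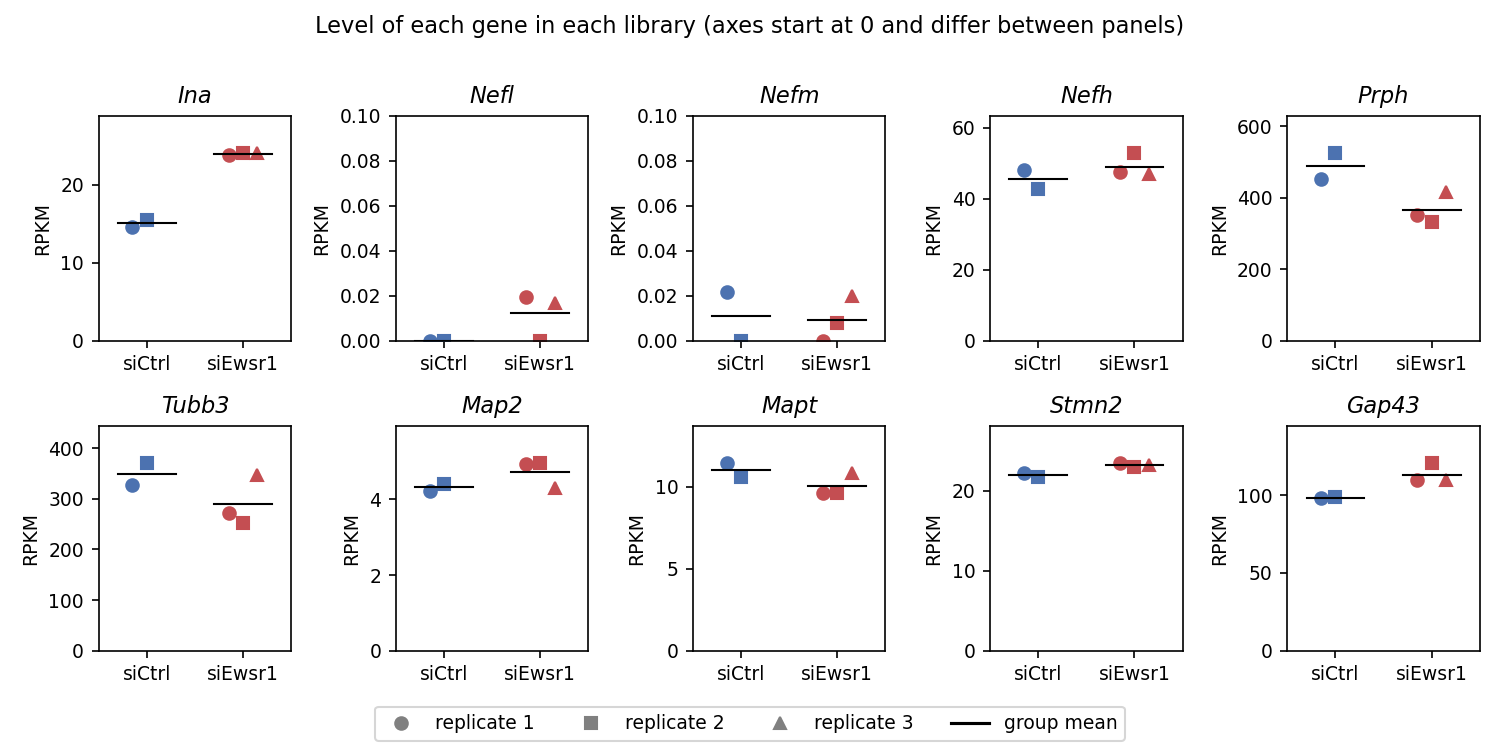
Level in RPKM (vertical axis from 0, scaled per gene) of each of the 10 genes in the 2 siCtrl libraries (blue) and the 3 siEwsr1 libraries (red), with marker shapes for replicate numbers and lines for group means. Ina is 14.6 and 15.5 in siCtrl and 23.9 to 24.0 in siEwsr1, while Nefl and Nefm stay under 0.022 RPKM in all libraries.

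Ina codes for alpha-internexin, a filament protein that appears early in neuronal development. The gene lies on the plus strand at chr19:47014698-47025327 (GRCm38). It stood at 14.6 and 15.5 RPKM in siCtrl and at 23.9, 24.0 and 24.0 in siEwsr1. The groups did not overlap, and the 3 siEwsr1 libraries lay closer to each other than the 2 controls did. Its mean went from 15.1 ± 0.599 RPKM (SD, n = 2) to 24.0 ± 0.0804 (SD, n = 3). The log2 fold change was 0.68 ± 0.08 (SE), with a 95% interval from 0.50 to 0.87 and an adjusted p of 0.0285 (limma), a rise of 60.7% on the log2(RPKM + 0.1) scale. Among all tested genes 6.47% had a larger absolute fold change.

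The size of the Ina difference varied little when a library was left out, but its call did not hold in each case. Leaving out siCtrl replicate 1 gave a limma adjusted p of 0.283, and leaving out siCtrl replicate 2 gave 0.318. For replicates 1, 2 and 3 of siEwsr1 the values were 0.152, 0.0443 and 0.0107. The log2 fold changes of these 5 fits ran from 0.66 to 0.73. In the fits where the Ina call was lost, no gene at all was called in either direction. Exons of Ina share 456 bases, 14.1% of their length, with Nt5c2 on the opposite strand, and whether the counting used strand is not given in the sources used here. Nt5c2 stood at 2.24 and 2.29 RPKM in siCtrl and at 1.88 to 2.04 in siEwsr1. The part of this overlap in the Ina values was not tested.

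Slc25a11 and Ddhd2 were among the 3 tested genes whose pattern over the 5 libraries lay nearest to that of Ina. Likeness was measured as the Euclidean distance of log2 values centred on the siCtrl mean. Slc25a11, a mitochondrial carrier, was at a distance of 0.0710, with 17.9 and 19.4 RPKM in siCtrl and 28.5, 28.8 and 29.7 in siEwsr1. Ddhd2, a phospholipase, was at 0.0811, with 13.7 RPKM in both siCtrl libraries and 22.6, 22.2 and 22.1 in siEwsr1.

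Short words in the 3′ UTR are shown because they were picked out of these same fold changes in earlier work, so their presence here is a description. The word TCACTGC, read on the transcribed strand, occurs once in the annotated 3′ UTR of Ina and once in that of Mapt. A second word, GCAATTT, occurs once in that of Map2. They are printed with 10 bases on each side, and the capitals mark the word. Sequences are from GENCODE M21 transcripts, placed on GRCm38.
Ina, chr19:47024032-47024058, plus strand: aagcatacaaTCACTGCagaggacaag
Mapt, chr11:104329367-104329393, plus strand: cgagagctagTCACTGCcgtccgtaca
Map2, chr1:66439874-66439900, plus strand: ctttggtgttGCAATTTtaggtatgtg

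The Ina word starts 392 bases into a 3′ UTR of 1677 bases. Of 11897 tested protein-coding genes, 16.8% hold TCACTGC in an annotated 3′ UTR and 9.26% hold GCAATTT. Of the carriers of TCACTGC, Ina rose whereas Mapt had a log2 fold change of -0.12 that was not called. None of the 1738 mature mouse miRNAs in the RefSeq table has a seed complementary to either word. The seed was taken as the 7 bases after the first, and only an exact match to the whole word was sought. Matches shifted along the printed sequences were not looked for, so this says only that these letters were not found.

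Peripherin was the most abundant of the filament messages. Prph (plus strand, chr15:99055174-99058978) stood at 453 and 524 RPKM in siCtrl and at 351, 333 and 416 in siEwsr1. All siEwsr1 libraries were below both controls, with replicate 3 closest to them. The log2 fold change was -0.40 ± 0.12 (SE, 95% interval -0.68 to -0.12) with an adjusted p of 0.134 (limma), so it was not called. Without siEwsr1 replicate 3 the log2 fold change was -0.48 (limma adjusted p = 0.0304). With limma voom on the recovered reads it was -0.40 (adjusted p = 0.0457). Of 16 alternatives only these 2 called Prph. They also called 943 of 14513 and 447 of 14859 tested genes lower, respectively. The decimal point of Prph was read above its lowest position in at least 1 library, at odds of 373 to 1.

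The neurofilament triplet was uneven. Nefh, the heavy chain with the long phosphorylated tail (minus strand, chr11:4938754-4948064), stood at 48.1 and 42.9 RPKM in siCtrl and at 47.5, 52.8 and 47.1 in siEwsr1. The groups overlapped and the log2 fold change was 0.13 ± 0.10 (SE, limma adjusted p = 0.520). Its point too was read above the lowest position in at least 1 library, at odds of 172 to 1.

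Nefl, the light chain that neurofilaments need to assemble (plus strand, chr14:68083863-68089095), had 0 reads in both siCtrl libraries and 1, 0 and 1 in siEwsr1. Nefm, the medium chain (minus strand, chr14:68082590-68124846), had 2 and 0 reads in siCtrl and 0, 1 and 2 in siEwsr1. Neither passed the filter of 10 reads in at least 2 libraries. A count of 0 allows up to 3 reads, which is 0.0416 to 0.0563 RPKM in the 3 libraries without a Nefl read, in counting error only. Annotated exons of Nefl and Nefm share 1108 bases on opposite strands, 32.8% of those of Nefl, so reads in that stretch could not be told apart without strand. Since a listed 0 may not show absence here, how low these 2 genes truly are was not tested.

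As a share of the summed RPKM of the 5 filament genes, Ina made up 2.84% and 2.66% in siCtrl and 5.66%, 5.86% and 4.93% in siEwsr1. The share of Nefh was 9.33% and 7.37% against 11.2%, 12.9% and 9.67%. The share of Prph was 87.8% and 90.0% against 83.1%, 81.3% and 85.4%. For all 3 genes the groups did not overlap, and with 2 against 3 libraries an exact test cannot go below 0.1. The shares are parts of the same sum, so a lower share of Prph goes with higher shares of the others. The level of Nefh itself overlapped between the groups. Over all tested genes, the levels of 39.8% did not overlap. The summed level was 549 ± 46.6 RPKM (SD, n = 2) in siCtrl and 440 ± 41.3 (SD, n = 3) in siEwsr1.

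**Figure D2:**
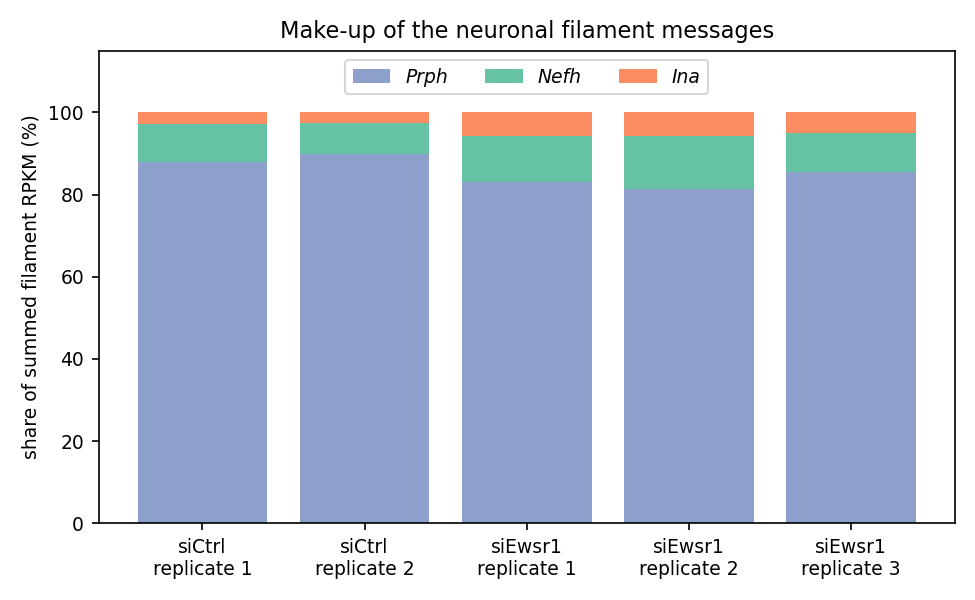
Share of Prph, Nefh and Ina (stacked bars, percent) in the summed RPKM of the filament genes in each of the 5 libraries, where Nefl and Nefm together are under 0.01% and are not drawn. The Ina segment is 2.66% to 2.84% in siCtrl and 4.93% to 5.86% in siEwsr1.

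Tubb3 codes for class III beta-tubulin, a tubulin largely restricted to neurons (plus strand, chr8:123411424-123422015). It stood at 328 and 370 RPKM in siCtrl and at 273, 252 and 347 in siEwsr1. Replicates 1 and 2 of siEwsr1 were below both controls and replicate 3 was between them. The log2 fold change was -0.26 ± 0.14 (SE, 95% interval -0.59 to 0.07) and was not called (limma adjusted p = 0.347). Without siEwsr1 replicate 3 it was -0.38 (limma adjusted p = 0.0450). Of 17 alternatives this was the only 1 that called Tubb3, and it also called 943 of 14513 tested genes lower.

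Of the microtubule-associated proteins, Map2 (plus strand, chr1:66175273-66442583) stood at 4.22 and 4.41 RPKM in siCtrl and at 4.94, 4.96 and 4.31 in siEwsr1. Mapt, which codes for tau (plus strand, chr11:104231390-104332090), stood at 11.4 and 10.6 RPKM in siCtrl and at 9.63, 9.64 and 10.9 in siEwsr1. The groups overlapped for both genes. The log2 fold changes were 0.14 ± 0.12 for Map2 (limma adjusted p = 0.539) and -0.12 ± 0.10 for Mapt (limma adjusted p = 0.530), both with SE. The log2 ratio of Map2 to Mapt was -1.44 and -1.26 in siCtrl and -0.96, -0.96 and -1.33 in siEwsr1, so the ranges overlapped.

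Stmn2 (plus strand, chr3:8509360-8561606) codes for stathmin-2, a tubulin-binding protein of growth cones. It stood at 22.3 and 21.8 RPKM in siCtrl and at 23.5, 23.0 and 23.3 in siEwsr1. The groups did not overlap, but the log2 fold change of 0.09 ± 0.08 (SE, 95% interval -0.09 to 0.28) was not called (limma adjusted p = 0.532).

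Gap43 (minus strand, chr16:42248442-42340651) codes for a membrane protein of growing axons. It stood at 98.1 and 98.5 RPKM in siCtrl and at 109.5, 120.5 and 109.6 in siEwsr1. All siEwsr1 libraries were above both controls. The log2 fold change was 0.22 ± 0.09 (SE, 95% interval 0.01 to 0.43), with an adjusted p of 0.234 (limma).

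**Figure D3:**
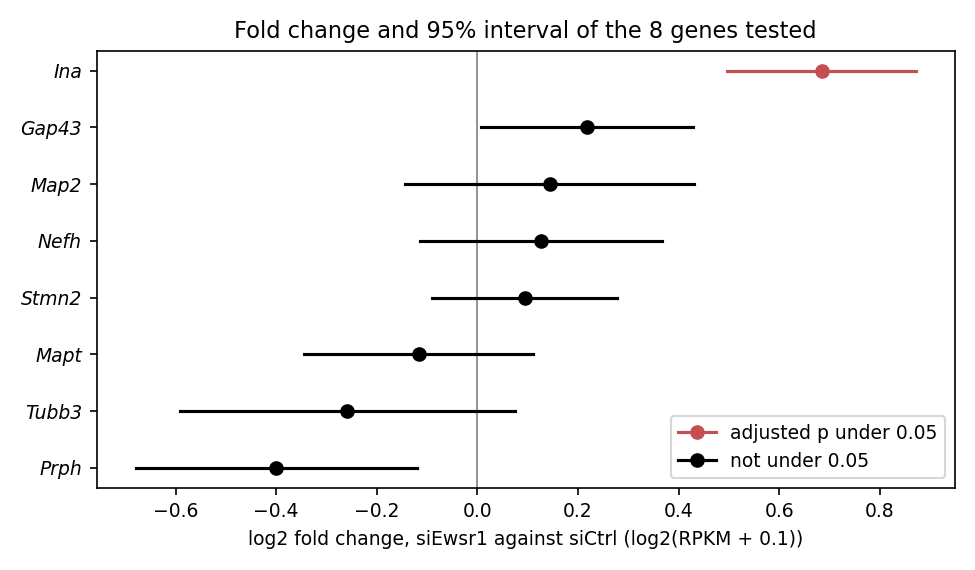
Log2 fold change of siEwsr1 against siCtrl (horizontal axis, on log2(RPKM + 0.1)) of the 8 genes tested, with points for the estimate and lines for the unadjusted 95% interval from limma. Ina at 0.68 is the only gene with an adjusted p under 0.05 (red), and the intervals of Gap43 and Prph also lie to one side of 0.

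Among the siEwsr1 libraries, replicate 3 was the one nearest to the siCtrl mean in 8 of the 8 genes. Over all tested genes it was the nearest in 43.6%. The gap was widest in Tubb3, with log2 differences from the siCtrl mean of -0.32, -0.44 and -0.02 in replicates 1, 2 and 3, and small in Ina, with 0.69, 0.70 and 0.66. The part played by the standing of this library was not tested.

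**Figure D4:**
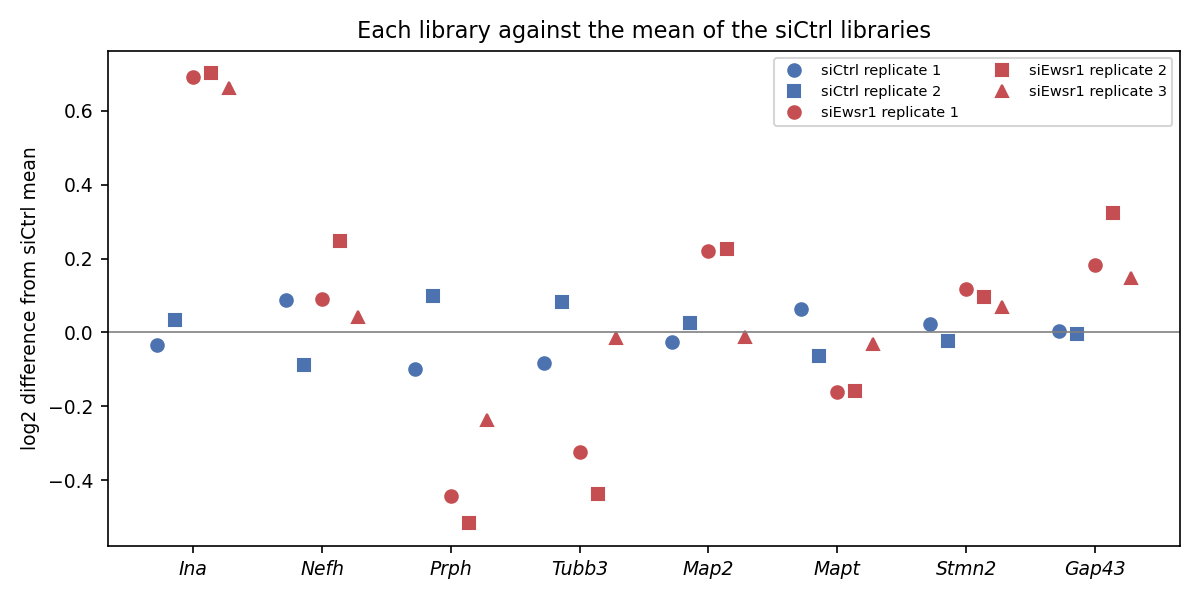
Log2 difference of each library from the siCtrl mean (vertical axis, after scaling between libraries) for the 8 genes tested, with colour for group and shape for replicate number. The 3 siEwsr1 libraries of Ina sit together at 0.66 to 0.70, while replicate 3 of Nefh, Tubb3, Map2 and Mapt lies among the controls.

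In order of level in siCtrl, Prph came first, followed by Tubb3, Gap43, Nefh, Stmn2, Ina, Mapt and Map2, and no neighbouring ranges overlapped. In siEwsr1 Ina, at 23.9 to 24.0 RPKM, stood above Stmn2, at 23.0 to 23.5, and the ranges of Prph and Tubb3 overlapped. This order depends on the length used. Over the longest coding transcript, Stmn2 had a siCtrl mean of 59.5 RPKM and stood above Nefh at 45.5. The siCtrl mean of Mapt by that length, 15.8, was above that of Ina, 15.1. Their ranges overlapped, with 16.4 and 15.2 for Mapt and 14.6 and 15.5 for Ina. By that length Stmn2 had a mean of 62.8 RPKM in siEwsr1 and Ina 24.0, so Ina did not stand above Stmn2 in either group.

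Related genes were described from 8 lists of 145 genes, of which 130 were tested and 15 were too low, 10 of those listed at 0 in every library. Of the 130, limma called 0 higher and 0 lower. At an unadjusted p under 0.05 there were 10 higher (7.69%) and 21 lower (16.2%), beside 9.89% and 10.3% of all tested genes. By limma voom on the recovered reads 2 were called higher and 5 lower, beside 353 and 447 of all 14859 genes tested. With the variance trend of limma run on mean CPM (reads scaled to the library total alone) the numbers were also 2 and 5. Beside these stood 356 and 398 of all 14859 genes tested. The median log2 fold change of the 130 was -0.04, beside -0.01 over all 14859 genes tested. Of the 130, 52 had a log2 fold change above 0, beside 7207 of all 14859 genes tested. None of the genes named below passed the adjusted test, and their values are descriptions.

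Among 12 tubulins tested, 1 had a log2 fold change above 0 and the median was -0.09. Several of those below 0 lay close to it, the nearest at -0.02, so their signs carry little. The largest absolute value was that of Tubb2a, a neuronal beta-tubulin, at 60.6 and 72.3 RPKM in siCtrl and 40.4, 39.8 and 49.0 in siEwsr1 (log2 fold change -0.61 ± 0.12, limma adjusted p = 0.0628). It was followed by Tube1 at 0.43 and Tubd1 at -0.41, the epsilon and delta tubulins of centrioles. Of 20 other neuronal microtubule proteins tested, 8 were above 0, with a median of -0.02. Stmn4, a relative of Stmn2, had -0.44, the microtubule stabiliser Map6 -0.44 and Map1s -0.38.

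Of 11 other intermediate filament and linker genes tested, 4 were above 0 and the median was -0.10. Vim, which codes for vimentin, stood at 258 and 280 RPKM in siCtrl and at 204, 204 and 205 in siEwsr1, groups that did not overlap, with a log2 fold change of -0.38 (limma adjusted p = 0.0758). Krt8, a keratin of simple epithelia, had 0.67 at levels near 1 RPKM or lower, and the lamin gene Lmnb2 had 0.56. Of 11 growth cone membrane proteins tested, 7 were above 0 with a median of 0.10. Nrcam had -0.41 at 0.493 to 0.783 RPKM, the cannabinoid receptor gene Cnr1 0.40 and L1cam 0.29.

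Of 23 genes for tubulin folding, modification and severing, 10 were above 0 with a median of -0.03. Hdac6, the tubulin deacetylase, stood at 6.29 and 6.07 RPKM in siCtrl and at 8.87, 8.89 and 11.4 in siEwsr1 (log2 fold change 0.65 ± 0.13, limma adjusted p = 0.0617). The tubulin folding cofactor gene Tbcc had -0.57 and the polyglutamylase gene Ttll7 -0.39. Of 16 plus-end proteins, 6 were above 0 with a median of -0.05, led by Clip4 at 0.65, Mapre3 at -0.43 and Tacc1 at -0.35. Clip4 was low, at 0.102 to 0.309 RPKM across all libraries, as was Mapre3 at 0.365 to 0.807, where the groups overlapped.

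Of 18 axonal motors and adaptors tested, 5 were above 0 with a median of -0.08. The kinesin adaptor gene Mapk8ip1 had -0.38, Kif21b -0.37 and Kif5a -0.30. Kif21b was low, at 0.0873 to 0.198 RPKM across all libraries. Of 19 kinases and phosphatases of tau and neurofilaments tested, 11 were above 0 with a median of 0.03. Mark3, a kinase that phosphorylates tau, stood at 9.998 and 10.73 RPKM in siCtrl and at 7.06, 7.04 and 6.39 in siEwsr1 (log2 fold change -0.58 ± 0.10, limma adjusted p = 0.0517). Camk2a, a kinase activated by calcium and calmodulin, had -0.54.

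**Figure D5:**
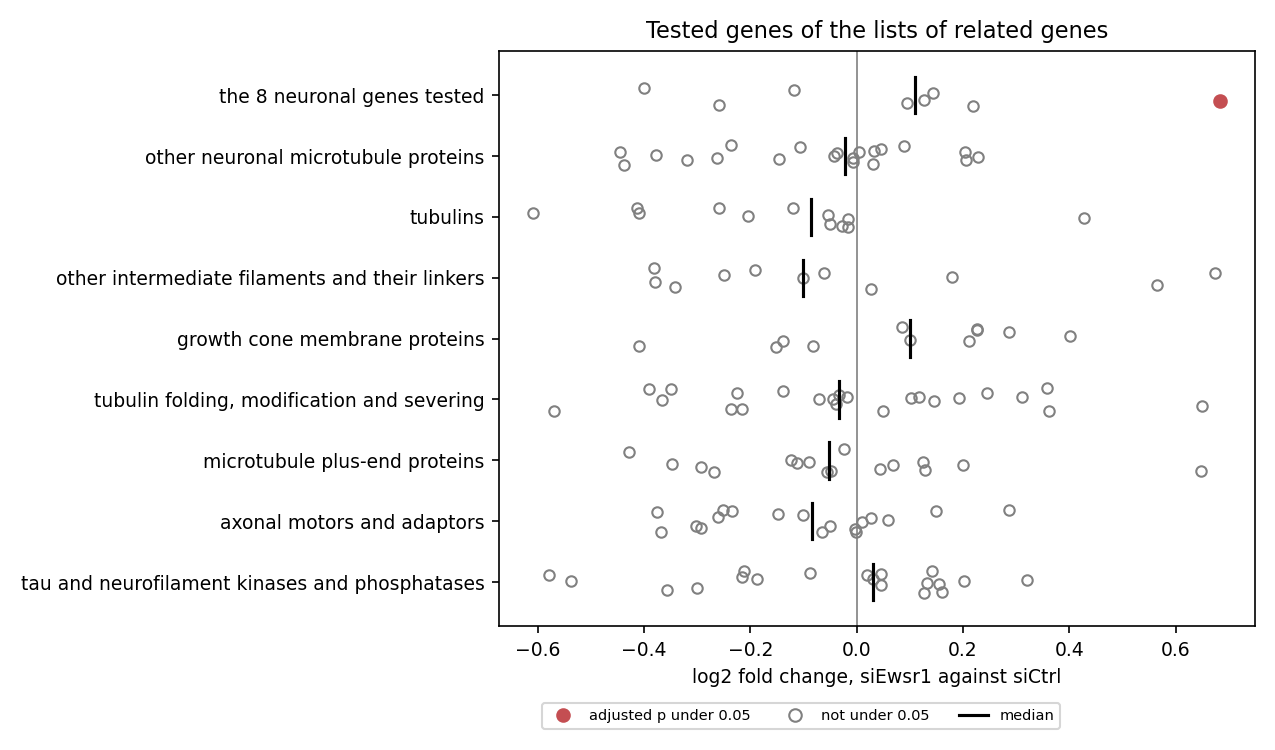
Log2 fold change of siEwsr1 against siCtrl (horizontal axis) of every tested gene in the 8 lists of related genes and of the 8 neuronal genes (top row), with circles for genes, black lines for medians and small vertical scatter for legibility. Ina at 0.68 is the one filled point, and the list medians run from -0.10 to 0.10.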

How the data were processed

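RNA was total RNA depleted of ribosomal RNA, made into libraries with a strand-specific kit per the labels' protocols. The authors used STAR 2.5.2b, featureCounts 1.5.1 and edgeR on GRCm38, per the submitters' processing notes. For the annotation release and the strand setting, the sources used here give nothing. The deposited values are RPKM per gene. Values under 1 were intact, and 98.5% to 98.6% of them were whole reads within 1e-06 of a read when multiplied by exonic length (GENCODE M21) and the solved total of counted reads. Larger values had lost their decimal point. It was restored where it gave whole reads, without the group labels: the lowest position was preferred, and a higher one was taken where it brought libraries closer (spread of 0.5 on the natural-log scale). Of 27255 genes above 0, 324 with odds under 20 were left out and 26931 kept. In simulated data no kept gene was misread, but most genes changed 4-fold were left out by the odds. The simulated data were drawn only from genes already kept with their GENCODE length, so the reading of other genes was not checked.

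A gene was tested if 2 or more libraries had 10 reads for it after scaling to the median total. The test was limma 3.58.1 (R 4.3.3; variance trend on mean log2(RPKM + 0.1), robust) on log2(RPKM + 0.1), scaled by trimmed-mean factors, with Benjamini-Hochberg adjustment over 14859 genes, called under 0.05. Values were prepared with Python 3.11.15. The values are not counts, so the planned edgeR and DESeq2 tests on recovered reads were not run, and limma voom was added in their place. The spread of 0.5 replaced 0.3 after simulated data showed misread genes. A variance trend on mean CPM was also tried after the data were seen. It called more genes, and for a time it served as the leading fit, but the trend on the mean level, as first written down, is the one reported. The 10 genes and all lists were chosen with earlier results of these data known. All 10 genes are named, as are up to 3 related genes per list with the largest absolute fold change and the 3 genes nearest to Ina, except for a few that are not reported here. Same-numbered libraries were not treated as pairs, since nothing but the number links them.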

Additional observations from a re-analysis of the deposited data

How the results depend on the processing

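The direction of the 8 genes was the same under every alternative that gave them a value. Nefh and Prph have none with the lowest decimal position only. Ina kept its call in 12 of 17 alternatives and lost it in the 3 fits named in the report, with no filter beyond 1 read (limma adjusted p = 0.0914) and with limma without trend and robust moderation (adjusted p = 0.0788). Of the 10 genes, the number called higher was 0 in these fits, and it ranged from 0 to 1 when a library was left out. The number called lower was 1 with limma voom and ranged from 0 to 2 without a library, reaching 2 without siEwsr1 replicate 3. Related genes called higher were 1 with a filter of 50 reads, 2 with limma voom, 2 with the variance trend on mean CPM and 0 to 6 without a library. Those called lower were 1 with library totals alone, 4 with a filter of 50 reads, 5 with limma voom, 5 with the trend on mean CPM, and 0 to 19 without a library. Of all genes, those called higher and lower were 0 and 0 with no filter beyond 1 read and 0 and 0 without trend and robust moderation. They were 266 and 323 with a filter of 50 reads, 58 and 75 with the lowest decimal position only, 353 and 447 with limma voom and 356 and 398 with the trend on mean CPM. Without a library they ranged from 0 to 992 and from 0 to 943, the highest without siEwsr1 replicate 3. With the replicate number as a block, a fit that gives siEwsr1 replicate 3 no partner, 170 genes were called higher and 177 lower, of the 10 genes 1 higher and 0 lower, and of the related genes 1 lower. Deviations of same-numbered libraries correlated at 0.025 and -0.12. The deviations of the 2 siCtrl libraries mirror each other, so these values cannot decide whether the numbers mark pairs. Shares of filament messages by CPM were 4.05% in siCtrl and 7.75% in siEwsr1 for Ina. In the longest transcript alone, 13.9% and 7.99% of genes hold TCACTGC and GCAATTT, and the Map2 word is absent. With 1 library of a group left, that library is assumed to vary like the others. The planned edgeR and DESeq2 tests were not run, and Ewsr1 has no value in the reported fit to compare.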
